A study of Mus musculus with 5 samples.

Results

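Away from CpG islands, CpGs are thinly spread over most of the mouse genome and nearly all of them carry methylation. Here 71257 such regions were examined, as 1 kb tiles of mm9 with few CpGs, no CpG-dense tile nearby and a high methylation level, out of 152678 autosomal tiles tested (46.7%). A member tile had 3 to 19 CpGs listed in any of the 5 libraries and no tile with 20 or more listed CpGs within 5 tiles on either side. It also held at least 3 CpGs with a second count (defined below) of at least 10 in all 5 libraries, and its pooled level in K9M replicate 2 was 0.85 or more. The members were therefore chosen by the measured levels of that 1 library. Of the 96152 sparse tiles away from CpG-dense ones, 74.1% were members. The coverage requirement is part of the rule, so all 71257 members were tested and none was lost to a filter.

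DNA methylation at CpGs is written by the DNMT enzymes, de novo by DNMT3A and DNMT3B and after replication by DNMT1. The reader domain of the de novo enzymes binds nucleosomes methylated at histone H3 lysine 36, a mark found over transcribed genes and, in its lower form, over broad intergenic domains. A lysine-to-methionine H3 acts dominantly by interfering with the enzymes that methylate that lysine in the rest of the H3 pool. In mammalian somatic cells, sparse sequence outside islands is mostly methylated and CpG islands are mostly not.

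Genomic DNA was measured by reduced representation bisulfite sequencing in 1 WT library (genotype wildtype), 2 K36M libraries (a dominant negative H3.3 at lysine 36) and 2 K9M libraries (a dominant negative H3.3 mutant at lysine 9). The series title names hematopoietic stem cells and the source name is HSCs, whereas the growth protocol gives peripheral blood as the source of the sorted cells, and methylation data hold no marker expression to check either against. K36M and K9M mice drank water with 2 mg/ml doxycycline, nothing is stated for WT, and so mutation and doxycycline cannot be told apart in a comparison with WT. The labels name no promoter or cell type that drives the transgenes, do not call the replicates separate animals, and give no age, so the spread between replicates may be technical. MspI, the cutting enzyme, leaves short fragments that start and end at CCGG sites, so the covered CpGs of a tile are a cluster and not a sample of the whole kilobase.

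Each library listed 3356656 to 3534966 CpGs with deposited totals of 111738339 to 174743796 counts. CpGs at 98% or more in K9M replicate 2 had deposited medians of 53.2% to 56.8% in the other 4 libraries. For those 4, the deposited total was read as the methylated count plus a second count that follows all reads, a reading inferred from the values. The relative level used throughout is the ratio of the methylated to the second count, in percent of the library's plateau, which is the median ratio of the 20% most methylated tiles. It can pass 100%. Members make up 73.2% of the 30536 plateau tiles, so a shift that all of them share cannot be seen on this scale. K9M replicate 2 chose the members, so its levels are a description only. It entered none of the tests below except the reruns said to include it. K9M replicate 1 shares its genotype with that library, so the choice of members is not fully independent of comparisons with it.

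Members were small patches of coverage. The median member listed 7 CpGs (25th to 75th percentile 5 to 10), of which 4 were covered, and 23074 members (32.4%) had exactly 3 covered CpGs. Neighbouring listed CpGs lay a median of 25 bases apart, and 74.0% of the gaps were 50 bases or less. The covered CpGs spanned a median of 147 bases, and 70.5% of members spanned 200 bases or less. A member's level is thus the level of 1 or a few restriction fragments. The nearest CpG-dense tile was a median of 37 kb away and at most 774 kb.

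Most members stood alone. They formed 63432 runs of adjacent tiles, of which 56861 were single tiles, holding 79.8% of members, and 1066 runs had 3 or more. The longest run, 7 tiles at chr9:108871001-108878000, had mean levels of 95.6% in WT, 96.0% and 91.7% in K36M replicates 1 and 2, 94.5% in K9M replicate 1 and 96.8% in K9M replicate 2. The runs of 6 tiles at chr9:44502001-44508000 and chr10:126988001-126994000 were at 101% and 100.9% in WT. The fullest 1 Mb window, chr2:165000001-166000000, held 116 members at 93.2% in WT, 88.6% and 91.7% in K36M, 94.5% in K9M replicate 1 and 98.1% in K9M replicate 2. In that window both K36M libraries lay below WT and K9M replicate 1, and in none of these 4 stretches was a library below 88.6%.

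The members were highly methylated in the 4 libraries that did not choose them. The mean level over members was 94.0% in WT, 90.8% in K36M replicate 1, 92.7% in K36M replicate 2 and 93.6% in K9M replicate 1. In K9M replicate 2 it was 97.7%, with a spread over tiles of 3.54 points (SD) that the threshold itself limits. Both K36M libraries were the lowest, and WT and K9M replicate 1 lay close together. From tile to tile the spread was wider in the libraries not used for the choice, with an SD of 8.70 points in WT, 12.2 and 10.3 points in K36M and 10.2 points in K9M replicate 1. Counting error alone may be of that order, because the median half-width of a tile's 95% counting interval was 19.7 to 21.8 points in those 4 libraries. These intervals treat the methylated and the second count as separate outcomes of their sum, so they are approximate.

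**Figure D1:**
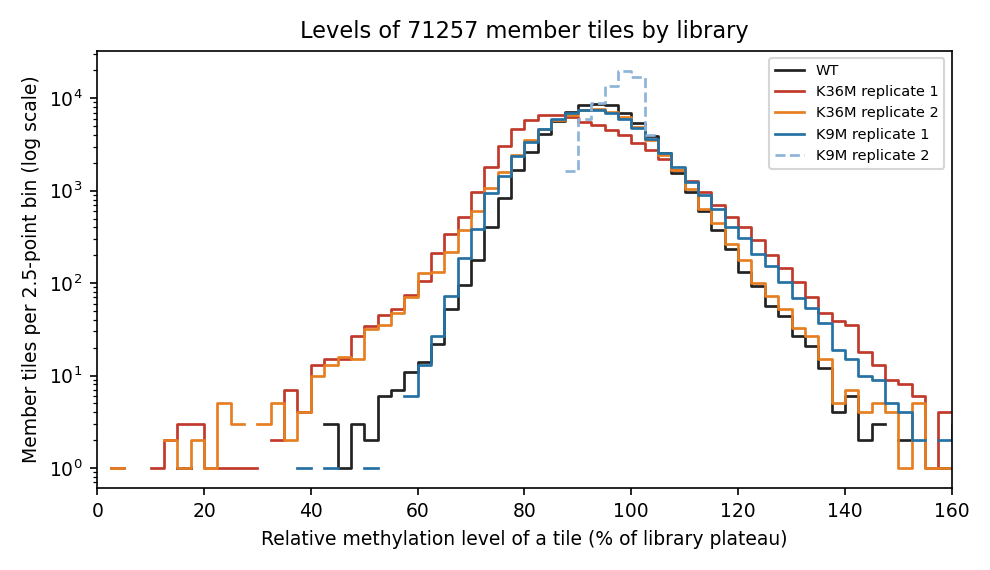
Number of member tiles (log scale) per 2.5-point bin of relative level (percent of library plateau) in each of the 5 libraries; the dashed line is K9M replicate 2, whose level chose the members. The centres overlap, while under 50% lie 97 and 83 tiles of the K36M libraries against 8 of WT and 2 of K9M replicate 1. The matching shares over all tiles were not counted.

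Over all members K36M was slightly lower. Its mean was 91.7% ± 1.28 (SD, n = 2), -2.24 points from WT and -1.90 points from K9M replicate 1. The difference from WT was -3.14 points in K36M replicate 1 and -1.33 points in replicate 2. Both lay below WT, and they differed from each other by more than replicate 2 differed from WT. K9M replicate 1 differed from WT by -0.335 points. With 2 libraries against 1, no permutation test can go below p = 0.333, so the mean was not tested. The size depends on the scale: a plateau set on the top 40% of tiles made the difference from WT -1.11 points, and with levels as deposited it was -0.574 points, where K9M replicate 1 lay 2.5 points above WT. The difference from K9M replicate 1 was -1.11 points under the first and -3.07 points under the second of these scales. It was -0.774 points without K36M replicate 1, where the plateau was also set anew with K9M replicate 2 among its libraries. The mean difference over all tiles was alike, at -2.19 points from WT and -1.91 points from K9M replicate 1, so the mean does not set members apart. The median tile difference was -2.01 points from WT among members and -0.614 points over all tiles. In single tiles this shift was smaller than the spread, since the K36M libraries differed from each other by a median of 7.64 points, the K36M mean from WT by 5.53 points and K9M replicate 1 from WT by 6.32 points.

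Few members differed by a test. Each tile was tested with a logistic model on both counts, with the replicate spread moderated by limma's squeezeVar and Benjamini-Hochberg adjustment over all 152678 tiles. A call required an adjusted p below 0.05 and group means at least 10 points apart. K9M replicate 2 was left out, so 1 residual degree of freedom, from the K36M pair, sets the spread and the lone WT and K9M libraries are assumed to vary like it.

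Against WT, 6 members fell in K36M (0.00842%), where 0.181% of all tiles did. None rose, where 0.00262% of all tiles did. At an unadjusted p under 0.05 in the same limma-moderated test, still with at least 10 points, 423 members were lower (0.594%, against 2.37% of all tiles). By the same limits 69 were higher (0.0968%, against 0.214%). Calls were thus rarer among members than over all tiles, and those made all went down. Members had a median of 4 covered CpGs and a WT second count of 38.7 per CpG, against 5 and 42.75 over all tiles. The part of coverage in the called shares was not tested. The rule also chose tiles near the plateau, and the part of that choice in the direction of the calls was not tested. Against K9M replicate 1, 14 members fell in K36M (0.0196%, against 0.381% of all tiles) and none rose (0.0131% of all tiles). By this test's unadjusted p under 0.05 with at least 10 points, 627 members were lower and 121 higher (2.8% and 0.449% of all tiles). Between K9M replicate 1 and WT, no member was called lower or higher, where 0.00458% and 0.00589% of all tiles were. There, 79 members were lower and 123 higher at an unadjusted p under 0.05 (0.574% and 0.641% of all tiles). The 2 comparisons of K36M share their K36M libraries and are not independent. Without a K36M library no residual degree of freedom is left, so those reruns added K9M replicate 2, the library that chose the members, and thus changed 2 things at once. On the K9M side they held both K9M libraries together and not replicate 1 alone. They kept no call against WT. The differences of the 6 members from WT moved by less than 5 points, for instance to -83.3 and -85.2 points in the tile on chromosome 1 at 78691001. At chr8:87245001 the difference from both K9M libraries together was -82.4 points without K36M replicate 1 and -82.3 points without replicate 2. From K9M replicate 1, with both K36M libraries, it was -76.1 points.

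The 6 called members lie on chromosomes 1, 8, 9 and 17. At chr1:78691001-78692000, with 4 covered CpGs, the level was 99.9% in WT, 14.5% and 16.8% in K36M, 80.5% in K9M replicate 1 and 92.8% in K9M replicate 2. The K36M mean of 15.6% ± 1.62 (SD, n = 2) was -84.3 points from WT, with an adjusted p of 0.0204 from the limma-moderated F test. With the tile described next, it had the widest difference among called members. The 95% Clopper-Pearson counting interval, 78.6% to 127% in WT, lay far above those of K36M, whose upper ends were 22.6% and 23.5%. It takes the methylated count out of the sum of both counts, as if these were separate outcomes. Where the second count follows all reads, the 95% coverage is therefore approximate. Such intervals cover counting error only, since reads of 1 PCR product are not independent molecules.

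At chr9:114649001-114650000, with 6 covered CpGs, the level was 103% in WT, 15.1% and 22.5% in K36M, 94.8% in K9M replicate 1 and 94.9% in K9M replicate 2. K36M was at 18.8% ± 5.24 (SD, n = 2), -84.3 points from WT, with an adjusted p of 0.0134 by the same limma-moderated test. Both K36M libraries were low, and the other 3 were near their plateau. At chr17:87578001-87579000, with 4 covered CpGs, WT was at 96.0%, K36M at 21% and 13.2%, K9M replicate 1 at 78.2% and K9M replicate 2 at 90.8%, which made K36M 17.1% ± 5.51 (SD, n = 2) and -78.8 points from WT (limma-moderated adjusted p = 0.0343). Here the K36M replicates stood in the opposite order, replicate 2 being the lower.

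The other 3 called members are on chromosome 8, at 3 separate places. At chr8:106946001-106947000, with 4 covered CpGs, WT was at 74.5%, K36M at 12.1% and 14.4%, K9M replicate 1 at 98.7% and K9M replicate 2 at 96.4%. K36M, at 13.2% ± 1.60 (SD, n = 2), was -61.3 points from WT (limma-moderated adjusted p = 0.0404) and -85.4 points from K9M replicate 1 (adjusted p = 0.0159). WT was the lowest of the libraries without the K36M mutation. At chr8:122900001-122901000, with 7 covered CpGs, WT was at 76.4%, K36M at 19.5% and 18.6%, K9M replicate 1 at 78.2% and K9M replicate 2 at 89.1%, and K36M, at 19.1% ± 0.573 (SD, n = 2), was -57.3 points from WT (limma-moderated adjusted p = 0.0158). The K36M replicates agreed here within 1 point.

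The tile at chr8:87245001-87246000 is the best covered of the 6, with 15 covered CpGs. Its methylated counts were 349 beside a second count of 460 in WT, 27 beside 607 and 24 beside 547 in K36M, and 450 beside 411 in K9M replicate 1. These gave levels of 61.4% in WT, 3.64% and 3.48% in K36M, 79.6% in K9M replicate 1 and 92.4% in K9M replicate 2. K36M, at 3.56% ± 0.108 (SD, n = 2), was -57.8 points from WT (limma-moderated adjusted p = 0.00276) and -76.1 points from K9M replicate 1 (adjusted p = 0.000871). It was the one called member that was close to unmethylated in K36M, while WT was intermediate. The 3 members with the largest loss against K9M replicate 1 include this tile and the one at chr8:106946001-106947000. The remaining one, chr7:149728001-149729000, with 3 covered CpGs, was at 67.8% in WT, 15.8% and 20.6% in K36M, 95.1% in K9M replicate 1 and 95.8% in K9M replicate 2. It differed from K9M replicate 1 by -76.9 points (limma-moderated adjusted p = 0.0284) and from WT by -49.6 points, which was not called (adjusted p = 0.0965). All 6 members called against WT also passed against K9M replicate 1.

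**Figure D2:**
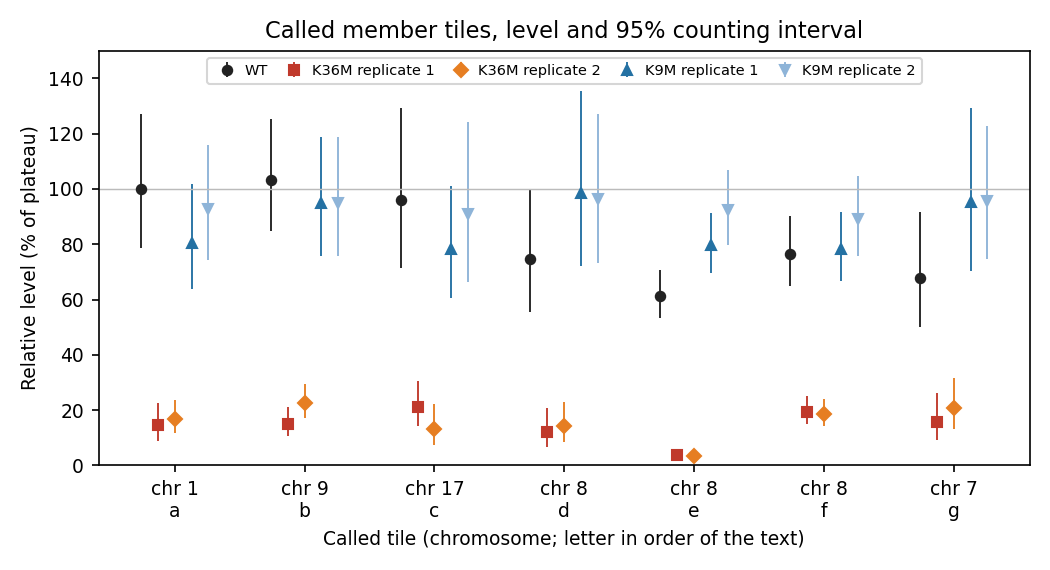
Relative level (percent of plateau) with an approximate 95% counting interval in each library, for the called members that the text names, ordered as a (chromosome 1), b (chromosome 9), c (chromosome 17), d to f (chromosome 8 from 106946001, from 87245001 and from 122900001) and g (chromosome 7). In K9M replicate 2 the second count is the deposited total and holds the methylated reads, so its interval is not a binomial one. In all 7 both K36M libraries lie at 22.5% or below and WT at 61.4% or above.

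Within the 7 named tiles, the low level was not the work of single CpGs. Every covered CpG had both K36M libraries below WT and K9M replicate 1: 4 of 4 on chromosome 1, 6 of 6 on chromosome 9, 4 of 4 on chromosome 17, 4 of 4, 15 of 15 and 7 of 7 on chromosome 8 and 3 of 3 on chromosome 7. CpGs of a tile share reads and are not replicates. The CpGs did differ in how low they were. In the chromosome 9 tile, the CpG at base 583 was at 44.6% and 45.1% in K36M, whereas that at base 655 was at 5.45% and 6.76%. The chromosome 1 tile had its highest K36M values, 25.8% and 23.4%, at base 686, against 5.84% and 9.62% at base 702. In both tiles the CpG that was highest in one K36M library was also the highest in the other.

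The best covered tile showed a profile along its 15 CpGs, from base 547 to base 969. At 6 of them no methylated count was found in either K36M library, which allows a level of up to 5.45% to 21.6% by the limit of 3 counts. At those same 6 CpGs WT was at 4.76% to 50.2% and K9M replicate 1 at 25.3% to 93.1%. The lowest point in WT, K9M replicate 1 (25.3%) and K9M replicate 2 (48.4%) was the same CpG, at base 763. WT rose to either side of it, to 80.9% at base 547 and 91.0% at base 959, while K36M was at 14.1% and 9.16% at the first and 9.29% and 2.52% at the second. In the libraries without the K36M mutation this member therefore holds a dip, and in K36M the low level extended over all its covered CpGs.

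**Figure D3:**
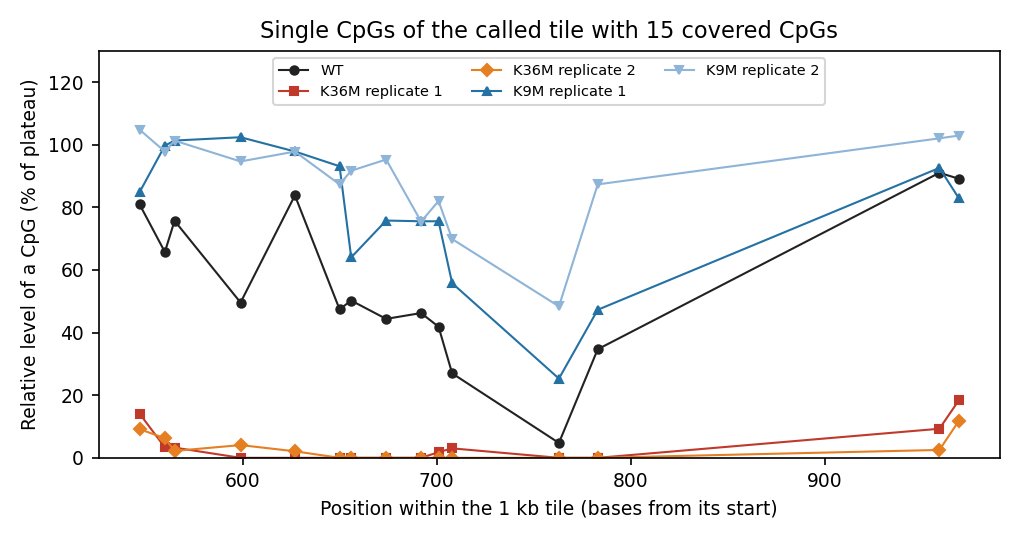
Relative level of each CpG (percent of plateau) against its position in bases from the start of the chromosome 8 tile with 15 covered CpGs, 1 line a library. K36M stays between 0% and 18.3% throughout, while WT and both K9M libraries dip towards base 763.

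A small set of members, with 5 of the 6 called against WT among them, was low in both K36M libraries. With limits chosen after the values were seen, 35 members (0.0491%, against 0.13% of all tiles) were under 50% in both K36M libraries and at 70% or more in WT and K9M replicate 1. None had the opposite order, where 0.00262% of all tiles did. The rule leaves little room for that order, since it required a high level in the other K9M library. Only 8 members were under 50% in WT and 2 in K9M replicate 1. Levels of the 35 ran from 70.1% to 104% in WT (median 80.1%), from 12.1% to 49.9% in K36M replicate 1 (median 41.9%), from 13.2% to 49.2% in K36M replicate 2 (median 41.5%) and from 70.1% to 118% in K9M replicate 1 (median 88.3%). The groups are apart by construction, so no test is given. 3 other pairs of limits were looked at: 53 members against 0 were under 60% and at 80% or more, 239 against 1 under 70% and at 80% or more, and 17 against 0 under 40% and at 60% or more. Over all tiles the counts were 174 against 1, 576 against 14 and 210 against 1, so the one-sided direction was general and not a feature of members. Among members the rule limits the opposite count at each pair of limits.

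The 35 members were scattered. They lay on 16 of the 19 autosomes, and the only pair within 1 Mb was 35 kb apart on chromosome 8, where the tile at chr8:122865001-122866000 (82.7% in WT, 41.2% and 34.5% in K36M, 108% in K9M replicate 1) sits near the called one at 122900001. Their nearest CpG-dense tile was a median of 18 kb away (6 to 119), against 37 kb over all members, and they listed a median of 6 CpGs. Depth was lower in them, with a WT second count below the member median in 22 of 35, and its part in the result was not tested.

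A library that the choice did not use showed the same tiles low. The 70 members under 50% in K36M replicate 1 and at 70% or more in WT had a median of 49.0% in K36M replicate 2 (13.2% to 71.6%) and of 83.7% in K9M replicate 1 (60.8% to 118%). K36M replicate 2 was below K9M replicate 1 in 70 of 70, against 52.0% of all members and 52.7% of all tiles. The 59 members under 50% in K36M replicate 2 and at 70% or more in WT had a median of 48.1% in K36M replicate 1 (12.1% to 100.4%) and of 87.7% in K9M replicate 1 (61.2% to 118%). K36M replicate 1 was the lower in 58 of 59, against 60.8% of all members and 57% of all tiles. With K9M replicate 1 in the place of WT for the choice, K36M replicate 2 was below WT in 86 of 88 members (54.7% of all members) and K36M replicate 1 in 72 of 77 (64.9% of all members). The shares below WT over all tiles were not counted. WT was itself under 70% in 20 of those 88 and 19 of those 77, and as low as 17.3%. These 4 sets share tiles with each other and with the 35 above. The same choices were not made over all tiles, so the counts do not set members apart. Every member also had to be high in K9M replicate 2, which bears on the levels of K9M replicate 1. Low tiles in WT were few: the 8 members under 50% in WT had medians of 45.8% and 45.7% in K36M and 79.7% in K9M replicate 1, and 2 members were under 50% in K9M replicate 1.

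**Figure D4:**
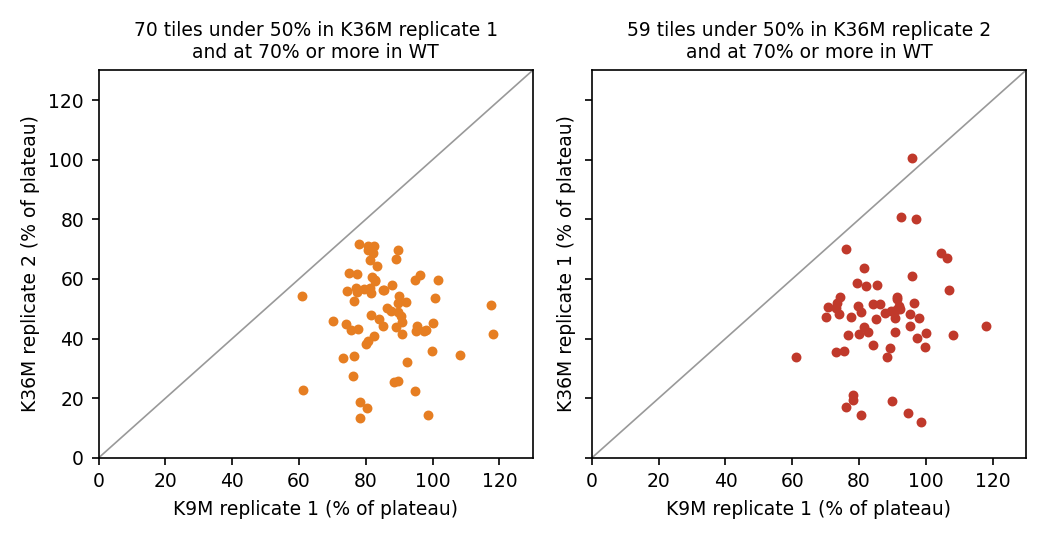
Each point is a member tile, with its relative level in K9M replicate 1 on the x axis and in the K36M library that was not used to choose it on the y axis (percent of plateau); the line marks equal levels. All 70 points on the left and 58 of 59 on the right lie below the line.

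The lower tail had the same shape over wider limits. Under 70% were 218 members in WT, 1482 and 1128 in K36M and 308 in K9M replicate 1. Above 130% were 79 members in WT, 363 and 112 in K36M and 237 in K9M replicate 1. The median second counts per CpG were 38.7, 30.7, 37.7 and 31 in the same order, and the part of depth in either tail was not tested. The shares over all tiles were not counted for the limits of 70% and 130%. The choice of members by the other K9M library bears on the K9M counts. Both K36M libraries lay below WT and K9M replicate 1 in 17021 members (23.9%, against 24.1% of all tiles) and above both in 7858 (11%, against 13.6%). By 10 points or more the counts were 2430 below (3.41%, against 4%) and 696 above (0.977%, against 0.744%). By 20 points or more they were 308 below (0.432%, against 0.88%) and 61 above (0.0856%, against 0.0609%). By 30 points or more they were 75 below (0.105%, against 0.249%) and 7 above (0.00982%, against 0.00655%). By 40 points or more they were 17 below (0.0239%, against 0.0629%) and 0 above (0.00131% of all tiles). The shares below were close to those of all tiles at the smallest gaps and under them from 20 points on, a difference that was not tested. The balance of lower to higher tilted with the size of the gap, from 17021 against 7858 to 17 against 0. The shares above were larger among members than over all tiles at 10, 20 and 30 points, also untested. Members were chosen at a high level, and the part of that choice in this balance was not tested.

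Single CpGs gave a similar account. Of the 368807 covered CpGs of members, 0.318% were under 50% in WT, 0.794% and 0.769% in K36M and 0.301% in K9M replicate 1. Low in both K36M libraries and at 70% or more in WT and K9M replicate 1 were 406 CpGs (0.11%, against 0.106% of all tested CpGs), and 10 had the opposite order, where 0.00518% of all tested CpGs did. The 406 CpGs lay in 297 tiles, of which 71 held at least 2 of them, and 75 lay in the 35 tiles above. Most of these CpGs thus lay outside the 35 tiles, and most of the tiles holding them held only 1. A tile outside the 35 can still be low in K36M. The one at chr8:87245001 was at 3.64% and 3.48% there, and was left out because WT was at 61.4%. Another 311 CpGs were under 50% in all 5 libraries, inside tiles that the rule calls highly methylated.

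The mean shift of K36M varied with where a member lay. Members 6 to 10 kb from a CpG-dense tile (8923) differed from WT by -3.85 points in K36M replicate 1 and -1.74 points in replicate 2, and members over 100 kb away (13182) by -2.17 and -0.85 points. The steps between ran in order in both libraries, and K9M replicate 1 stayed between -0.432 and -0.141 points in all 5 classes. Median depth was alike in these classes, at WT second counts of 38.5 to 39 per CpG. Both K36M libraries were lower by 20 points or more in 53 members of the nearest class and in 28 of the farthest.

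Crowding of members gave a like picture. In 1 Mb windows with under 20 members the differences from WT were -1.60 and -0.398 points in the K36M libraries, and in windows with 45 or more they were -4.06 and -1.77 points, with K9M replicate 1 at -0.487 and -0.271 points. Of the 35 members low in both K36M libraries, 20 lay in the fullest class of windows, which holds 26140 members, and 1 in the emptiest, which holds 11668. The median distance to a CpG-dense tile was 61 kb in the emptiest class of windows and 27 kb in the fullest, and crowding and distance were not separated. By chromosome, K36M replicate 1 ranged from -2.28 points (chromosome 16) to -4.01 points (chromosome 17) and replicate 2 from -1.09 points (chromosome 14) to -1.89 points (chromosome 19), below WT on all 19 in both.

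**Figure D5:**
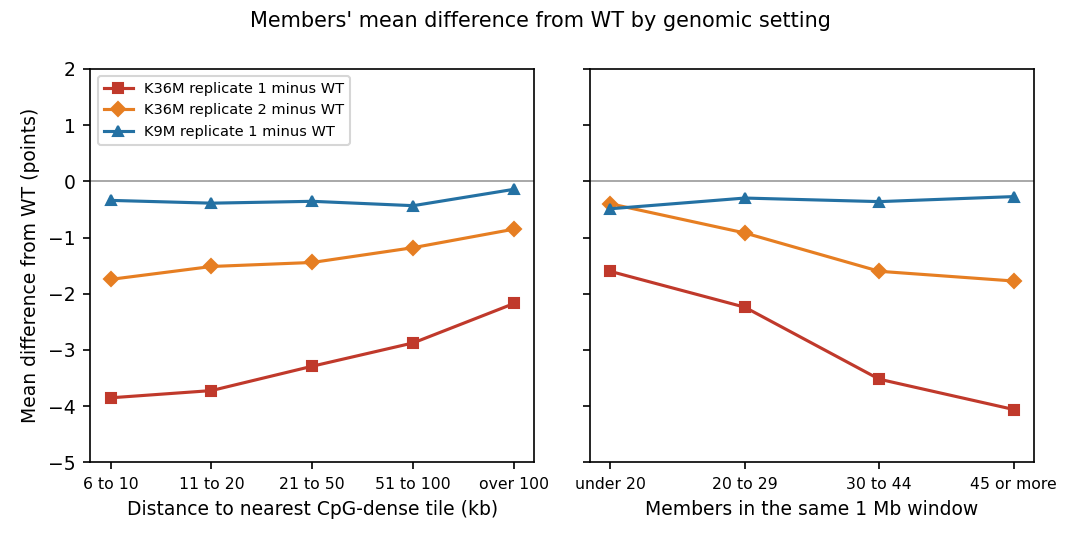
Mean difference from WT over members (points of relative level) in each K36M library and K9M replicate 1, by distance to the nearest CpG-dense tile (left) and by the number of members in the same 1 Mb window (right); points are means over tiles, with no error bar because each library is 1 sample. Both K36M lines move away from 0 towards dense tiles and crowded windows, and the K9M line stays between -0.487 and -0.141.

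The number of CpGs and the depth also moved with the shift. With 3 to 4 listed CpGs, members differed from WT by -3.40 and -1.68 points in K36M replicates 1 and 2, and with 15 to 19 CpGs by -1.70 and 0.169 points. In the fifth of members with the lowest depth the differences were -4.06 and -3.06 points, and -0.836 points in K9M replicate 1. In the fifth with the highest depth they were -2.43, -0.104 and 0.0752 points. K36M replicate 2 thus hardly differed from WT where coverage was best. The opposite ends of depth held 116 and 28 members with both K36M libraries lower by 20 points or more, and 36 and 3 with both higher. The part of depth in the mean shift was not tested, beyond these values.

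Across 1 Mb windows the small shift was widespread. Of the 1559 windows with at least 20 members, both K36M libraries had a lower mean than WT and K9M replicate 1 in 870 (55.8%) and a higher one in 46 (2.95%). The difference from WT ran from -7.95 to 4.01 points with a median of -2.38 points, and that of K9M replicate 1 had a median of -0.347 points. limma called 0 windows in each of the 3 comparisons, with 69, 64 and 9 windows at an unadjusted p under 0.05 for K36M against WT, K36M against K9M replicate 1 and K9M replicate 1 against WT. The smallest adjusted p from limma were 0.742, 0.298 and 0.999. Under a plateau set on the top 40% of tiles, the windows below and above numbered 685 and 125. A share of windows is a description, because a shift of a whole library moves all its windows.

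Tiles beside members were less methylated than members, and K36M was below WT in them too. The 19341 tested tiles directly next to a member, 80.9% of them members, averaged 88.7% in WT, 85.4% and 87.4% in K36M and 88.6% in K9M replicate 1. Those 5 tiles away, 65.8% of them members, were at 82.3%, 78.6%, 80.1% and 82.1% in the same order. Around the 35 members low in both K36M libraries, the 39 tested tiles 1 to 5 away, 24 of them members, averaged 74.9% in WT, 63.1% and 64.5% in K36M and 76.3% in K9M replicate 1. Both K36M libraries were below the other 2 in 23 of these 39 (59.0%) and above in 1, against 27.0% and 10.8% around all members. Around the 35, the order of the libraries was thus shared more often than around all members, but not the size of the difference. K36M was -11.0 points from WT on average in those 39 tiles, beside a median of -40.7 points in the 35. How many of the 35 had a covered neighbour was not counted.

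Beside other classes of tile, members had few calls and a mean difference of middling size. In the 20314 equally sparse tiles at 0.15 to under 0.85 in K9M replicate 2, the mean level was 68.0% in WT and 63.5% ± 0.155 (SD, n = 2) in K36M, -4.58 points, and 145 tiles fell against WT (0.714%, with the limma-moderated test). In the 9340 CpG-dense tiles at 0.85 or more it was 94.6% in WT and 94.1% ± 1.37 (SD, n = 2) in K36M, -0.45 points, and 2 tiles fell (0.0214%). In the 4581 sparse tiles under 0.15 the levels were 5.06% in WT and 4.30% ± 0.211 (SD, n = 2) in K36M, -0.766 points, and 10 tiles fell (0.218%). Members, at -2.24 points and 0.00842%, differed more in the mean than the CpG-dense and the unmethylated class and less than the intermediate one. Their called share was smaller than that of each of these classes. The median of covered CpGs was 4 in members and in the intermediate class, 6 in the sparse tiles under 0.15 and 15 in the CpG-dense tiles. The part of coverage in these shares was not tested. The differences between classes were not tested.

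The threshold of 0.85 cut through a continuous range. 3 members at the lower edge, chr1:38235001-38236000, chr1:167971001-167972000 and chr2:25539001-25540000, had a deposited pooled level of 85% in K9M replicate 2, and the tiles just outside, on chromosomes 14, 13 and 1, had 84.994%, 84.993% and 84.992%. In WT the first 3 were at 89.6%, 87.7% and 89.8% and the last 3 at 86.3%, 85.7% and 84.8%.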

How the data were processed

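DNA methylation was measured by reduced representation bisulfite sequencing in 5 libraries (1 WT, 2 K36M, 2 K9M). Per the submitters' processing notes, cutadapt, BSMAP and mm9 were used; versions, deduplication and settings are not given in the sources used here. The deposited tables give each CpG a methylation fraction and a total count. The methylated count was their rounded product, the second count the remainder (in K9M replicate 2 the total). Members, lists and tests were chosen with earlier results of these data known. Groups follow the titles. CpGs needed a second count of 10 in all 5 libraries. Tests were logistic models per tile with the log plateau as offset, dispersion moderated on a trend by limma 3.58.1 in R 4.3.3 and held at or above 1, an F test and Benjamini-Hochberg adjustment. The code was also run on simulated counts, with the methylated count drawn out of the sum of both counts. That run cannot check the reading of the second count and is not used as support. The moderated dispersion lay above the floor in 12.1% of members. Tiles named are the 6 largest called losses and 4 gains of K36M against WT, 3 and 3 for the other comparisons, each with both K36M libraries on one side and none above 130%, plus the longest runs, the fullest window, tiles beside the threshold and the deepest tiles. No gain was called. Positions are mm9, and no gene, promoter or sequence was assigned, since the gene tables used are of another build.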

Additional observations from a re-analysis of the deposited data

How the results depend on the processing

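The count of members lower in K36M than in WT, 6, was 1 with a coverage minimum of 5 or the plateau from the top 40% of tiles, 2 with a level threshold of 0.90, 3 with the plateau from CpG-dense tiles, 13 with at least 5 covered CpGs, 14 with limma on relative levels and 15 with all 5 libraries. Against K9M replicate 1, 14 became 4, 5, 7, 6, 30 and 35 in that order, 38 with levels as deposited and 24 with a threshold of 0.80. With all 5 libraries, 83 members were called lower against K9M replicates 1 and 2 together. Leaving out a replicate gave 0 to 6 and 1 to 2 calls. The reruns with all 5 libraries, and those without a K36M replicate, include the library that chose the members. Their K9M group is both K9M libraries together and not replicate 1 alone. The replicate block, with all 5 libraries, gave 0 calls in both. The numbers are not known to pair the samples: the replicate differences of K36M and K9M correlated at 0.0795 over tiles. Gains of K36M stayed at 0 except 1 against K9M replicate 1 with limma on relative levels. K9M replicate 1 gained against WT in 1 member with a coverage minimum of 20, at least 5 covered CpGs, deposited levels or limma. With all 5 libraries, K9M replicates 1 and 2 together gained against WT in 2 members.

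Over members, K36M lay from WT by -0.574 points with levels as deposited, -1.11 points with the top 40% plateau and -2.56 to -1.48 points without a replicate, and from K9M replicate 1 by -2.14 to -0.774 points without a replicate. Without a K36M replicate the plateau was also set anew, with K9M replicate 2 among its libraries. K9M replicate 1 then lay from WT by -0.707 points (without K36M replicate 1) and -0.422 points (without replicate 2), against -0.335 points in the main setting. The difference of K9M replicate 1 from WT turned to 2.5 points with deposited levels and 0.0752 points in the highest depth class, an alternative chosen after seeing the data. The 35 members low in both K36M libraries were 19 with a coverage minimum of 20, 9 with at least 5 covered CpGs, 61 and 10 with thresholds of 0.80 and 0.90 and 4 in the highest depth class. Members lower by 20 points or more were 143 (coverage 20), 116 (5 CpGs), 173 (threshold 0.90) and 28 (highest depth), and those higher 14 (coverage 20), 19 (5 CpGs) and 3 (highest depth), with 92 under the top 40% plateau. Windows below were 470 and 312 with the coverage minimum of 20 and 5 CpGs, and those above 10 and 8, 125 with the top 40% plateau and 21 with a threshold of 0.90. Results defined by both K36M libraries were not rerun without one. The cause of these changes was not tested. The 9 values of the named tiles kept their sign in 106 reruns and lost the call in 43, leaving aside the changes of threshold or distance, which cannot alter the fit of a tile. Depth limits single tiles, whose approximate median counting half-width was 19.7 to 21.8 points.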

Other observations

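Outside the autosomes, 1950 X tiles of 4699 tested met the same rule. Their mean level was 94.2% in WT, 92.4% and 94.4% in K36M replicates 1 and 2, 93.4% in K9M replicate 1 and 97.0% in K9M replicate 2. K36M was -0.825 points from WT there, and both K36M libraries were below WT and K9M replicate 1 in 353 tiles (18.1%, against 23.9% of autosomal members), while K36M replicate 2 had a mean slightly above WT.

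The deepest member, chr2:98506001-98507000, had a second count of 2180034 in WT and levels of 94.9% in WT, 95.1% and 94.3% in K36M and 94.4% in K9M replicate 1. The 4 libraries lay within 1 point in this tile. Its second count was far above that of any other member, and whether its reads come from 1 place in the genome was not tested. The next deepest, chr15:74917001-74918000, with a WT second count of 15498, was at 86.8% in WT, 81.0% and 89.6% in K36M and 89.5% in K9M replicate 1. The K36M replicates stood on either side of WT in it, as they did at chr19:20648001-20649000, with 84.7% in WT and 80.1% and 89.9% in K36M.

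When the 1 Mb window means were first centred on each library's median, a step chosen after the data were seen, limma called 2 windows lower and 1 higher in K36M against K9M replicate 1, and 0 in the other comparisons, at an adjusted p under 0.05.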
